A study of Homo sapiens with 96 samples.

Results

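The AP-1 subunits of the FOS and JUN families were followed over 96 Affymetrix U133 Plus 2.0 arrays. The members were the 7 genes FOS, FOSB, FOSL1, FOSL2, JUN, JUNB and JUND, of 19775 genes with a probe set of their own in the platform annotation. The annotation assigned 17 probe sets to these 7 genes, and for each gene the brightest of them, by its mean on arrays of HaCaT constructs, was read. HaCaT, human keratinocytes that became immortal spontaneously, gave 89 of the arrays after being transduced with lentiviral vectors driven by the CMV promoter and selected with puromycin. The 4 resulting lines were HaCaT-Mock (the control), HaCaT-EGFR (EGFR), HaCaT-HRAS (mutant HRAS) and HaCaT-PIK3CA (mutant PIK3CA). The inhibitors were given for a day as 10 nM afatinib, 100 nM gefitinib or 100 nM cetuximab, with PBS as the vehicle. Each line had 3 arrays per inhibitor and under PBS, except for 2 under gefitinib in HaCaT-PIK3CA and 2 under PBS in HaCaT-EGFR. Each line also had 3 arrays with siRNA against EGFR (siEGFR), 3 with scramble siRNA alone, 1 or 2 with scramble siRNA and PBS (scramble+PBS) and 1 with scramble siRNA and each inhibitor. Parental HaCaT cells (HaCaT-Parent) and 3 head and neck carcinoma lines (SCC1, SCC25, FaDu) made up the other 7 arrays.

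AP-1 is a transcription factor made of 2 proteins of the basic leucine zipper class, in most cases a FOS family protein with a JUN family protein. FOS proteins do not pair with each other and need a JUN partner, whereas JUN proteins can also pair among themselves. FOS and FOSB are immediate early genes that respond to serum and growth factors within minutes, in part through ERK acting on ternary complex factors at their promoters. FOSL1 (Fra-1) and FOSL2 (Fra-2) lack the strong activation domains of FOS and FOSB, and FOSL1 is itself a target of ERK signalling and of AP-1. JUN is a strong activator that JNK phosphorylates, JUNB is a weaker one that can counteract JUN, and JUND is the member found in resting cells. In the epidermis AP-1 takes part in proliferation, wound closure and the switch to terminal differentiation.

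To set the members side by side at the level of DNA, the 250 bases before the RefSeq start of FOS and of JUND (GRCh38.p14) are printed 5′ to 3′, since these genes moved in opposite directions under EGFR inhibitors. The FOS window lies at chr14:75278578-75278827 on the plus strand and the JUND window at chr19:18281623-18281872 on the minus strand. Capitals mark the cyclic AMP response element.
FOS: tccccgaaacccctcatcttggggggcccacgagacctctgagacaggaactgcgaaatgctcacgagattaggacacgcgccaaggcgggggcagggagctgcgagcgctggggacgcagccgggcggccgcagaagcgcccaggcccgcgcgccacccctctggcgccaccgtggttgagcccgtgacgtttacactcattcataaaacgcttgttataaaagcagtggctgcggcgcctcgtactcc
JUND: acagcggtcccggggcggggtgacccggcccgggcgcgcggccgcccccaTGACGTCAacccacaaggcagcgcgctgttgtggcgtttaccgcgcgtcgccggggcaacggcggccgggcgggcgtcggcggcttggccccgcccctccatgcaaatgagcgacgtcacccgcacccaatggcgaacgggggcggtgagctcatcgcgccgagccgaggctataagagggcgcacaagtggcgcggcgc
The table of promoters held an entry for 6 of the 7 members. FOSL1 was the member without one. These 6 windows were searched on both strands for the AP-1 site TGANTCA, the cyclic AMP response element TGACGTCA, the CArG box of serum response factor, the ETS site CCGGAAGT and the EGR site GCGNGGGCG, none of which overlapped another match here. The sole match was the TGACGTCA in the JUND window, a sequence held by 1.65% of 35116 promoters of the same length. TGANTCA was found in 6.57% of all promoters, the CArG box in 1.16%, CCGGAAGT in 3.42% and GCGNGGGCG in 8.41%. These are matches of letters only. Sites further upstream or with other letters were not searched, so a window without a match may still hold such sites.

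The labels place the arrays in batches named J (53 arrays), E (16), M (26) and P (1), and batch was a term of every fit. The 3′ minus 5′ difference of the ACTB control probe sets, a sign of RNA length, had a median of 1.35 on the log2 scale in batch J, 1.43 in batch E and 0.385 in batch M. All 7 keratinocyte markers with a named probe set lay above the median gene level of 6.10, with medians from 8.55 to 13.31, and 1 of 12 markers of other cell types did (COL1A1, 7.25). In the siEGFR arrays the EGFR log2 signal lay between 7.95 and 9.10, against 9.93 to 10.95 with scramble siRNA, and EGFR fell by 1.92 (SE 0.0479, limma adjusted p = 8.1e-37). Cell numbers cannot be read from bulk RNA, so a lower signal from fewer cells of a type and from less RNA per cell cannot be told apart.

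Several arrays stood apart or went against their labels, and some of the results that rest on them are given with and without them. The 1 array of HaCaT-Mock labelled scramble+PBS had a FOSL1 signal of 6.31, whereas the scramble+PBS arrays of the other 3 lines lay between 8.22 and 8.87. The same HaCaT-Mock array was low for DUSP6, an ERK phosphatase induced by ERK signalling (8.13, against 9.46 to 10.91 in the other lines). Replicate 1 of afatinib in HaCaT-PIK3CA showed the opposite, with FOSL1 at 8.27 and DUSP6 at 9.57, whereas the other 2 afatinib arrays of that line had FOSL1 at 6.12 and 6.74. Replicate 1 of gefitinib in HaCaT-HRAS had an ACTB 3′ minus 5′ difference of 3.5, the highest of the HaCaT arrays, and replicates 1 and 2 of that group received array weights of 0.0578 and 0.02. These 2 arrays and the HaCaT-PIK3CA afatinib array are called the 3 arrays in doubt, and they were chosen after their values were seen. The 4 batch E arrays of HaCaT-Mock stood apart for JUN, as described with that gene.

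Under PBS the signals of FOS and FOSB were low and those of the other members were higher in the range of the array. Levels of different probe sets are not directly comparable. The percentiles given here rank the mean signal of each member among those of all genes, so they share this limit. Over the 11 PBS arrays of the 4 lines, FOSL1 ranged from 7.84 to 9.16 on the log2 scale with a median of 8.49. FOS ranged from 5.36 to 6.49 (median 5.90) and FOSB from 5.38 to 5.88 (median 5.66). The mean FOS and FOSB signals over all HaCaT arrays lay at the 40.6 and 43.6 percentile of genes, below the median gene. The medians under PBS were 8.09 for FOSL2, 9.19 for JUN, 8.32 for JUNB and 8.91 for JUND. These members lay between the 75.6 percentile (FOSL2) and the 85.4 percentile (JUND) of genes, and FOSL1 lay at the 63.7 percentile. All 7 members had a mean of at least 5.

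EGFR inhibitors moved the members in opposite directions. Averaged over the 4 lines and the 3 inhibitors (35 arrays against 11 with PBS), FOS, FOSB, FOSL1 and JUN fell and FOSL2, JUNB and JUND rose. All 7 members passed the adjusted p of 0.05 (limma, Benjamini-Hochberg over all genes), where 39.2% of all genes did (19.8% higher and 19.4% lower). The change was largest for FOSL1, which fell by 1.96 on the log2 scale, a 3.89-fold lower signal, while the rises stayed within 1.48-fold. Of the 7 keratinocyte markers 6 rose in the same comparison (median 0.40, against -0.01 for all genes), and their part in the changes of the members was not tested.

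The FOSL1 signal in HaCaT-Mock was 8.43, 8.55 and 8.52 on the 3 PBS arrays. It was 5.80, 5.67 and 6.0 with afatinib, 5.98, 5.88 and 6.07 with gefitinib, and 6.33, 6.32 and 6.80 with cetuximab. Every inhibitor array of this line lay below every PBS array. In HaCaT-EGFR FOSL1 was 8.07 and 7.84 under PBS and between 5.11 and 5.83 on the 9 inhibitor arrays, again without overlap. In HaCaT-PIK3CA it was 8.47, 8.33 and 8.84 under PBS and 5.64 to 8.27 on the 8 inhibitor arrays, where the highest was the afatinib array in doubt and the next was 6.74. FOSL1 thus fell in these 3 lines, whatever the inhibitor. All inhibitor arrays of HaCaT-EGFR, and several of the other lines, lay below the median gene level of 6.10. This limits how far the size of the FOSL1 fall can be read or compared between lines and inhibitors. In HaCaT-HRAS the PBS arrays read 8.54, 8.49 and 9.16 and the inhibitor arrays 7.81 to 8.97, and the groups overlapped. Over the 4 lines 34 of 35 inhibitor arrays lay below the PBS mean of their line, and the FOSL1 difference was -1.96 (SE 0.103, 95% interval -2.17 to -1.75, adjusted p = 1.6e-22). It was -2.06 without the 3 arrays in doubt and -1.87 within batch J.

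**Figure D1:**
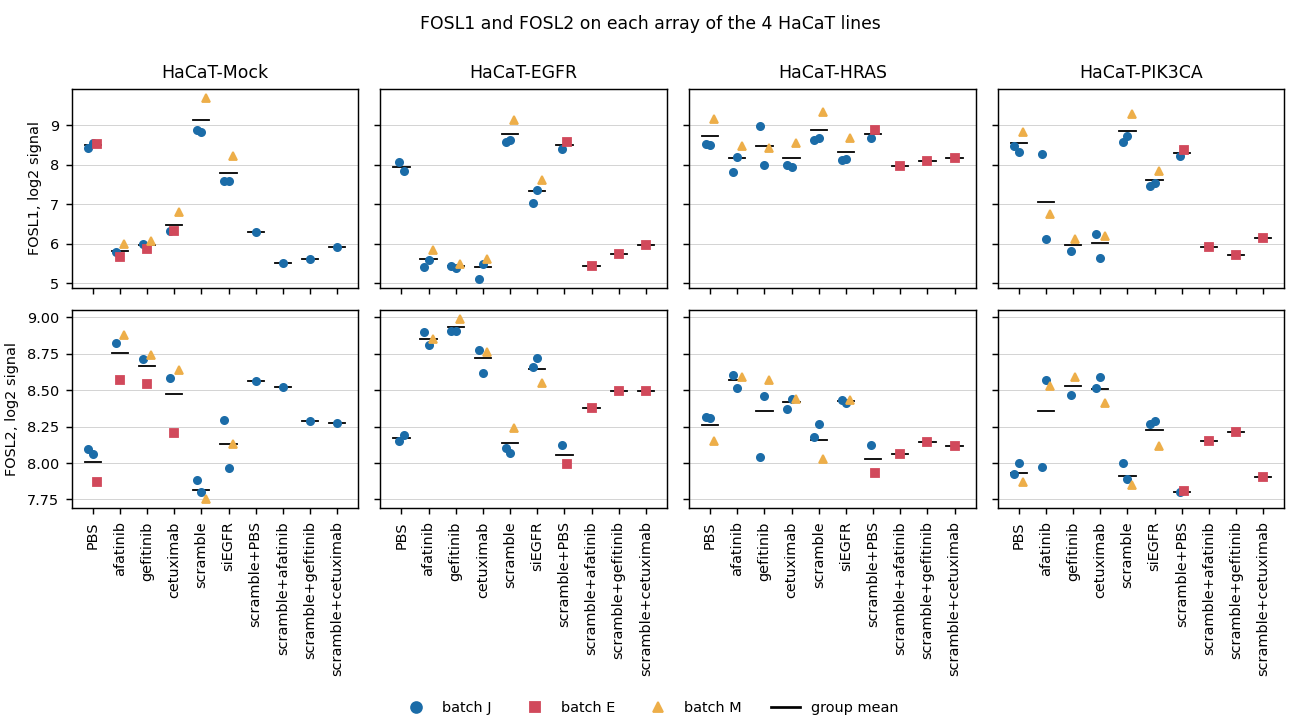
Log2 signal of FOSL1 (top) and FOSL2 (bottom) on each array (points, shaped by batch) of the 4 HaCaT lines by treatment, with the group mean as a bar. FOSL1 under inhibitors without siRNA lies between 5.67 and 6.80 in HaCaT-Mock and between 7.81 and 8.97 in HaCaT-HRAS, and the HaCaT-Mock scramble+PBS array (6.31) sits with the inhibitor arrays.

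FOS, the prototype of the family, fell by 0.73 over the 4 lines (SE 0.0783, adjusted p = 1.5e-11) and was below the PBS mean of its line on 32 of 35 inhibitor arrays. The FOS difference was -0.69 without the 3 arrays in doubt. Its fall was clearest in HaCaT-EGFR, where the PBS arrays read 6.33 and 6.06 and the 9 inhibitor arrays 4.49 to 5.43. The low level of the FOS probe set limits how far a fall can be read. FOSB, its closest relative, fell by 0.23 (SE 0.0551, adjusted p = 0.00049), with PBS arrays from 5.38 to 5.88 and inhibitor arrays from 4.95 to 5.75. The FOSB groups overlapped over most of their range, and the shift was about the size of its standard deviation over all HaCaT arrays (0.228).

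FOSL2, the relative of FOSL1, went the other way. In HaCaT-Mock FOSL2 was 8.09, 8.06 and 7.87 under PBS and 8.21 to 8.88 on the 9 inhibitor arrays, and in HaCaT-EGFR it was 8.15 and 8.19 against 8.62 to 8.99. The groups did not overlap in either line. Over the 4 lines FOSL2 rose by 0.50 (SE 0.0423, 1.41-fold, adjusted p = 6.1e-15) and lay above the PBS mean on 34 of 35 inhibitor arrays. The FOSL2 rise was 0.54 without the 3 arrays in doubt and 0.46 within batch J. Of the 4 other FOSL2 probe sets, a pair also passed, with rises of 0.57 and 0.73, and the remaining pair gave 0.14 (adjusted p = 0.051) and 0.10 (adjusted p = 0.13).

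Among the JUN proteins JUND, the member of resting cells, rose most. JUND in HaCaT-Mock was 8.84, 8.90 and 8.72 under PBS. The inhibitor arrays of that line were at 9.66, 9.47 and 9.53 in batch J, 9.30, 9.19 and 9.18 in batch E and 10.33, 10.19 and 10.25 in batch M. Batch M arrays were thus higher than the others, and the rise was 0.69 within batch J and 0.50 within batch E. Over the 4 lines JUND rose by 0.57 (SE 0.0628, 1.48-fold, adjusted p = 3.9e-11) and was above the PBS mean on 33 of 35 arrays, with 0.58 without the 3 arrays in doubt. The count of 33 is not adjusted for batch, and HaCaT-Mock and HaCaT-EGFR have no PBS array in batch M. Of the 3 other JUND probe sets, whose means of 4.94 to 5.37 lie below the median gene, 1 passed with a rise of 0.26 (adjusted p = 2e-05) and the others gave 0.14 and -0.12, neither past the test.

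JUNB, which can oppose JUN in keratinocytes, rose by 0.19 (SE 0.0368, adjusted p = 1.8e-05) and lay above the PBS mean of its line on 32 of 35 arrays. This count is not adjusted for batch either, and the JUNB median of HaCaT arrays was 8.73 in batch M, 8.33 in batch J and 8.37 in batch E. Within batches the JUNB difference ran from -0.04 (HaCaT-HRAS, batch M) to 0.33 (HaCaT-Mock, batch E). JUN, the namesake of the family, fell by 0.16 (SE 0.0648, adjusted p = 0.039). It lay below the PBS mean of its line on 23 of 35 arrays and above it on 12. The JUN call did not hold without the 3 arrays in doubt (-0.14, adjusted p = 0.086). It was also lost in turn without any of 11 single arrays (differences of -0.143 to -0.166), namely afatinib 2, cetuximab 2, gefitinib 2, PBS 1 or PBS 2 of HaCaT-Mock, PBS 1 of HaCaT-EGFR, PBS 1 or PBS 3 of HaCaT-HRAS, or afatinib 1, PBS 1 or PBS 2 of HaCaT-PIK3CA. JUN in HaCaT-Mock read 9.38 and 9.35 in batch J and 8.69 in batch E under PBS. With inhibitors it read 9.07 to 9.39 in batches J and M and 8.01, 8.10 and 8.19 in batch E. Within HaCaT-Mock the JUN difference was -0.13 in batch J and -0.59 in batch E. JUN also had probe sets of mean 7.08, 6.88 and 5.48, and its calls depended on the choice. Over the 36 comparisons of all kinds, that of mean 7.08 gained 4 JUN calls and lost none. That of mean 6.88 lost 6 and gained 1, and that of mean 5.48 lost 4 and gained 1.

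By line, 4 of the 7 members passed in HaCaT-Mock (28.7% of all genes), 5 in HaCaT-EGFR (26.4%), 6 in HaCaT-PIK3CA (20.3%) and 1 in HaCaT-HRAS (6.01%). The comparisons of a line share its PBS arrays with those of each inhibitor. FOSL1 fell by 2.54 in HaCaT-Mock (SE 0.197), fell by 2.60 with the EGFR construct (SE 0.23) and fell by 2.22 with the PIK3CA construct (SE 0.199), where it differed by -2.46 without the 3 arrays in doubt. In HaCaT-HRAS the FOSL1 difference was -0.47 (SE 0.195, adjusted p = 0.16). FOS fell by 0.79 in HaCaT-Mock, by 1.31 with the EGFR construct and by 0.54 in HaCaT-PIK3CA. The last had no call when PBS replicate 1 was left out (-0.43). In HaCaT-HRAS FOS differed by -0.28 (adjusted p = 0.31). The FOS difference was smaller in batch M, with 1 PBS array, than in batch J. It was -0.13 against -0.76 in HaCaT-PIK3CA and -0.06 against -0.39 in HaCaT-HRAS. FOSL2 rose by 0.62 in HaCaT-Mock, 0.66 in HaCaT-EGFR and 0.53 in HaCaT-PIK3CA and differed by 0.19 in HaCaT-HRAS (adjusted p = 0.16). JUND rose in each of the 4 lines, by 0.68 (HaCaT-Mock) and 0.63 (HaCaT-EGFR), by 0.52 in HaCaT-PIK3CA (0.60 without the 3 arrays in doubt) and 0.43 in HaCaT-HRAS (adjusted p = 0.017). JUNB rose by 0.28 in HaCaT-EGFR, a call lost without PBS replicate 1 (0.24), and by 0.20 in HaCaT-PIK3CA, a call lost without any of 6 single arrays (0.17 to 0.23), which were afatinib 2 or 3, gefitinib 1 and each PBS array. FOSB fell by 0.33 in HaCaT-PIK3CA (adjusted p = 0.018), which was lost without gefitinib 1, PBS 2 or PBS 3 of that line (-0.28 to -0.33).

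In HaCaT-Mock JUN (-0.29, adjusted p = 0.078) and JUNB (0.17, adjusted p = 0.056) missed the threshold. JUN passed there without afatinib 1 (-0.33) or cetuximab 3 (-0.32), and JUNB without cetuximab 3 (0.18) or PBS 2 (0.22).

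The HaCaT-HRAS values turned on the arrays in doubt. Without those 3 arrays FOSL1 fell by 0.58 in HaCaT-HRAS (adjusted p = 8.9e-05), FOSL2 rose by 0.26 (adjusted p = 0.0021) and JUND rose by 0.39 (adjusted p = 0.00083), so 3 members passed. Without gefitinib 1 of HaCaT-HRAS alone FOSL2 also passed (0.24). With batch J alone no member passed there. The JUND call in HaCaT-HRAS was also lost without any single PBS array (0.42 to 0.45). Within batch M, with 1 PBS array and 3 inhibitor arrays, the FOSL1 difference in HaCaT-HRAS was -0.68.

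Arrays of inhibitor and PBS did not overlap for 3 members in HaCaT-Mock (FOSL1, FOSL2 and JUND, where 15% of all genes did not overlap). This held for 6 members in HaCaT-EGFR, which had 2 PBS arrays (27.6% of all genes), for 1 in HaCaT-PIK3CA (FOSL1, 4.21%) and for 0 in HaCaT-HRAS (3.58%).

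**Figure D2:**
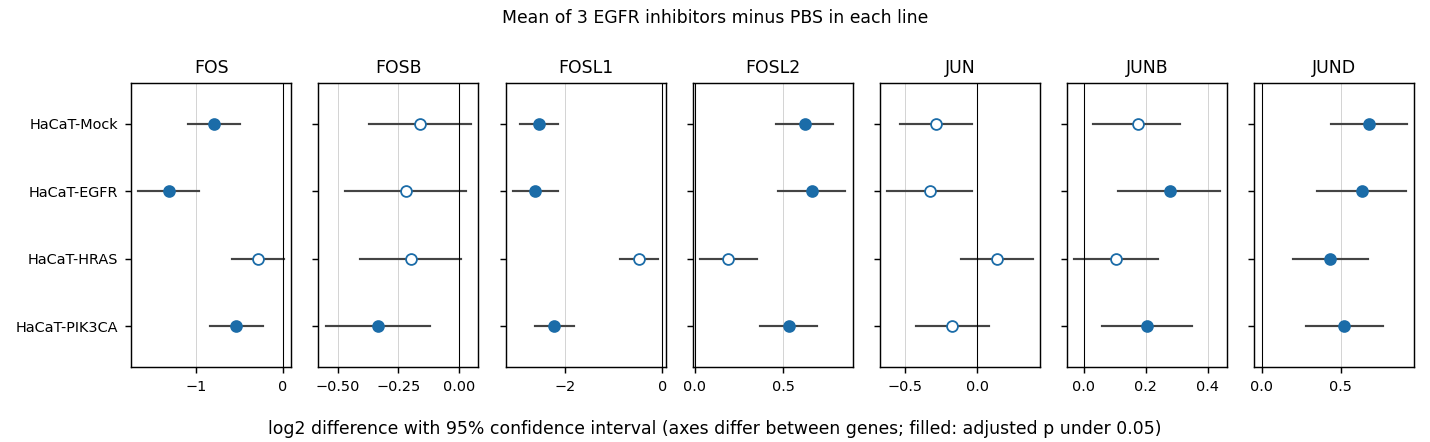
Log2 difference between the mean of the 3 inhibitors and PBS in each line (points, filled where the adjusted p was under 0.05) with 95% confidence intervals, a panel per member with its own axis. FOSL1 sits between -2.60 and -2.22 in HaCaT-EGFR, HaCaT-Mock and HaCaT-PIK3CA and at -0.47 in HaCaT-HRAS, whereas JUND is above 0 in all 4 lines.

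Whether a construct changed the response was tested directly as the difference of inhibitor responses from HaCaT-Mock. In HaCaT-HRAS 2 of the 7 members passed (9.53% of all genes). The FOSL1 response was less negative by 2.07 (SE 0.277, interval 1.51 to 2.63, adjusted p = 2.6e-07), with 1.98 without the 3 arrays in doubt and 2.09 within batch J (adjusted p = 0.0095). The FOSL2 response was smaller, at -0.43 (SE 0.113, interval -0.66 to -0.20, adjusted p = 0.0079), and did not pass within batch J (-0.53, adjusted p = 0.085). For FOS the difference of responses was 0.51 (adjusted p = 0.13), and it passed without the 3 arrays in doubt (0.59, adjusted p = 0.024), without gefitinib 1 of HaCaT-HRAS alone (0.61) or without PBS 2 of HaCaT-HRAS (0.73). For JUND it was -0.24 (interval -0.58 to 0.09, adjusted p = 0.46), so a smaller rise in HaCaT-HRAS was not shown. No member passed for HaCaT-EGFR (0.0708% of all genes) or HaCaT-PIK3CA (0.142%). The FOSL1 intervals there were -0.67 to 0.54 and -0.25 to 0.88.

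Afatinib and gefitinib are small molecules that block the kinase of EGFR, afatinib irreversibly and across ERBB receptors, and cetuximab is an antibody against the receptor. Afatinib was given at 10 nM and the others at 100 nM, so doses differ for the pairs with afatinib, and the inhibitors share their PBS arrays. FOSL1 differed from PBS by -1.84 with afatinib, -2.05 with gefitinib and -1.98 with cetuximab, FOSL2 by 0.54, 0.53 and 0.43, and JUND by 0.56, 0.64 and 0.50. Without the 3 arrays in doubt FOSL1 differed by -2.02 with afatinib and by -2.16 with gefitinib, and JUNB also passed with cetuximab (0.09, adjusted p = 0.023). All 7 members passed with afatinib (37.1% of all genes) and gefitinib (37.5%) and 5 with cetuximab (28.8%), where JUN (-0.08, adjusted p = 0.54) and JUNB (0.09, adjusted p = 0.12) did not. The JUN calls were the least stable, with -0.21 for afatinib, lost without PBS 1 of HaCaT-EGFR, afatinib 2 of HaCaT-Mock or afatinib 1 of HaCaT-PIK3CA, and -0.20 for gefitinib, lost without any of 9 single arrays. Neither JUN call held without the 3 arrays in doubt (-0.18 and adjusted p = 0.074 for afatinib, -0.17 and adjusted p = 0.13 for gefitinib). FOSB fell by 0.21 with gefitinib, a call lost without PBS 1 of HaCaT-EGFR or gefitinib 1 of HaCaT-PIK3CA.

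FOS was lower with cetuximab and with gefitinib than with afatinib. It differed from PBS by -0.38 with afatinib, -0.82 with gefitinib and -0.99 with cetuximab. In HaCaT-Mock the FOS arrays read 5.64, 5.32 and 5.44 with afatinib, 5.18, 4.62 and 4.94 with gefitinib and 4.95, 4.57 and 4.74 with cetuximab, and PBS read 6.14, 5.90 and 5.58. In each batch of this line the afatinib array was the highest of the 3 inhibitors. In HaCaT-HRAS FOS read 6.30, 6.20 and 5.90 with afatinib, within the PBS arrays of 5.83, 6.49 and 5.72, and 5.33, 5.61 and 5.20 with cetuximab, below them. The gefitinib arrays of HaCaT-HRAS read 5.05, 6.14 and 5.87 for FOS, of which the first and second are arrays in doubt, and overlapped both PBS and afatinib. Of 3 pairs of inhibitors compared over the 4 lines, FOS was lower with cetuximab than with afatinib by 0.61 (SE 0.0904, adjusted p = 1.3e-06) and lower with gefitinib than with afatinib by 0.45 (SE 0.0932, adjusted p = 0.011). The second call was lost without gefitinib 1 of HaCaT-PIK3CA (-0.41), with array weights (-0.44, adjusted p = 0.052), in batch J alone (-0.50, adjusted p = 0.34), without batch M (-0.53, adjusted p = 0.13) and with only the groups compared (-0.45, adjusted p = 0.3). Without the 3 arrays in doubt FOS differed by -0.65 for cetuximab and by -0.41 for gefitinib (adjusted p = 0.019). Adjusted p-values here are over all genes within a pair, of which 13.2% and 0.485% passed.

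At the shared dose of 100 nM, cetuximab and gefitinib differed for JUNB alone of the 7 members (10.8% of all genes). JUNB was lower with cetuximab by 0.15 (SE 0.0438, adjusted p = 0.021), a call lost without the 3 arrays in doubt (-0.09, adjusted p = 0.12), without cetuximab 2 of HaCaT-HRAS (-0.13) or without gefitinib 1 of HaCaT-PIK3CA (-0.14). FOS differed by -0.17 (interval -0.35 to 0.02), which passed without gefitinib 1 of HaCaT-HRAS (-0.25). JUND likewise passed without gefitinib 2 of that line (-0.20). FOSL1 differed by 0.07 (interval -0.18 to 0.32) and FOSL2 by -0.09 (interval -0.19 to 0.01), the latter -0.15 without the 3 arrays in doubt (adjusted p = 0.0084). JUNB was also lower with cetuximab than with afatinib, by 0.15 (adjusted p = 0.013). FOSL2 differed by -0.10 in that pair (adjusted p = 0.18), and passed without the afatinib array in doubt of HaCaT-PIK3CA (-0.15).

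Knockdown of EGFR moved the FOS family as the inhibitors did and left JUND and JUN without a call. Over the 4 lines (12 siEGFR arrays against 12 with scramble siRNA) 5 of the 7 members passed, where 28.4% of all genes did. FOSL1 in HaCaT-Mock was 8.88, 8.83 and 9.69 with scramble siRNA and 7.59, 7.59 and 8.22 with siEGFR, in both cases highest in batch M, and the groups did not overlap. Over the 4 lines FOSL1 fell by 1.15 (SE 0.119, adjusted p = 1.5e-11) and by 1.28 within batch M. FOS fell by 0.38 (SE 0.0904, adjusted p = 0.00061) and FOSL2 rose by 0.35 (SE 0.0488, adjusted p = 4.5e-08). FOSB fell by 0.19 (adjusted p = 0.02), a call lost without scramble 3 of HaCaT-EGFR, siEGFR 3 of HaCaT-HRAS or siEGFR 2 of HaCaT-Mock (-0.161 to -0.164). JUNB rose by 0.12 (adjusted p = 0.022), a call lost without siEGFR 3 of HaCaT-EGFR or siEGFR 2 of HaCaT-Mock (0.107 and 0.112). JUND gave -0.06 (interval -0.20 to 0.09, adjusted p = 0.64) and JUN -0.04 (interval -0.19 to 0.11, adjusted p = 0.75). In HaCaT-Mock JUND read 8.60, 8.46 and 8.91 with scramble siRNA and 8.47, 8.64 and 8.75 with siEGFR. The knockdown and the inhibitor comparisons use different arrays and controls, and their difference for JUND was not tested.

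By line, FOSL1 fell by 1.33 in HaCaT-Mock, by 1.44 with the EGFR construct and by 1.25 in HaCaT-PIK3CA with siEGFR. Of the 7 members 4 passed in HaCaT-Mock (10.8% of all genes), 3 in HaCaT-EGFR (9.46%), 2 in HaCaT-PIK3CA (11.6%) and 0 in HaCaT-HRAS (6.29%). FOSL2 rose by 0.32 in HaCaT-Mock, 0.50 in HaCaT-EGFR and 0.31 in HaCaT-PIK3CA. Its siEGFR arrays lay above all scramble arrays in each of the 4 lines. Within a single line, 15.7% to 17.6% of all genes did not overlap, in one direction or the other. The share of genes without overlap in all 4 lines together was not counted. The FOSL2 calls were lost without scramble 2, scramble 3 or siEGFR 1 in HaCaT-Mock (0.233 to 0.315), and without any of these or siEGFR 2 in HaCaT-PIK3CA (0.275 to 0.304). In HaCaT-Mock FOS fell by 0.55 (adjusted p = 0.037), lost without any single array of the comparison (-0.536 to -0.574), and FOSB by 0.45 (adjusted p = 0.011), lost without scramble 3 or siEGFR 2 (-0.379 and -0.353). JUNB rose by 0.36 in HaCaT-EGFR (adjusted p = 0.0027). In HaCaT-HRAS FOSL1 differed by -0.57 (adjusted p = 0.18) and FOSL2 by 0.27 (adjusted p = 0.095), and both passed without the 3 arrays in doubt, which enter this comparison only through the estimate of the spread (adjusted p = 0.00046 for FOSL1 and 0.0042 for FOSL2). The difference of the siEGFR response from HaCaT-Mock passed for no member in HaCaT-EGFR (0.0101% of all genes), HaCaT-HRAS (0.0253%) or HaCaT-PIK3CA (0%). For FOSL1 in HaCaT-HRAS it was 0.77 (interval 0.09 to 1.44, adjusted p = 0.98), and 0.018 was the adjusted p without the 3 arrays in doubt.

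**Figure D3:**
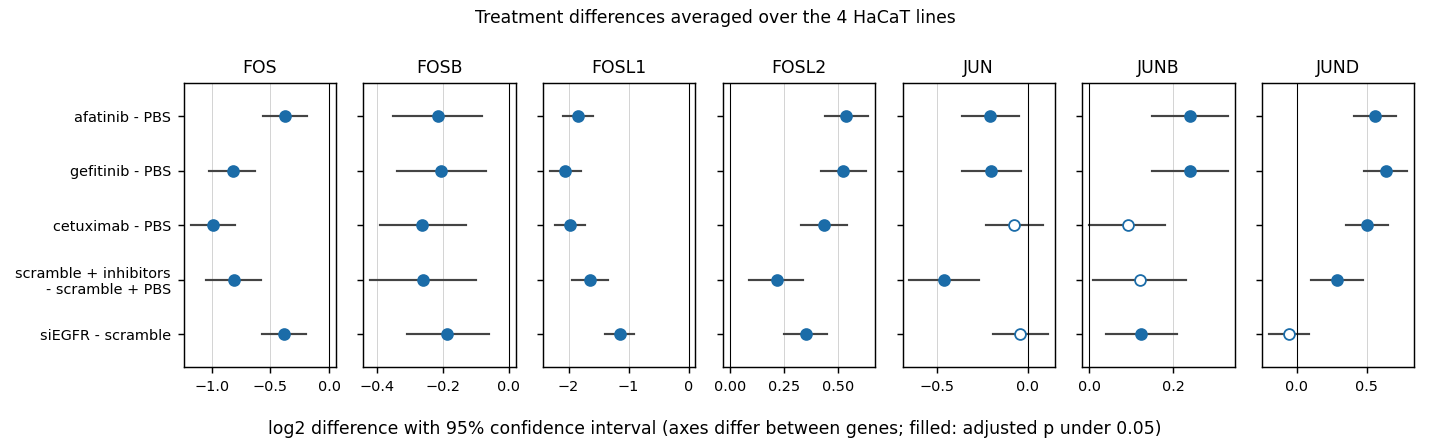
Log2 differences averaged over the 4 HaCaT lines for each inhibitor against PBS, the inhibitors against PBS on arrays with scramble siRNA, and siEGFR against scramble siRNA, with 95% confidence intervals and filled points where the adjusted p was under 0.05 (panels have their own axes). FOSL1 lies below and FOSL2 above 0 in all 5 comparisons, and JUND lies at -0.06 with siEGFR.

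The inhibitors were also given together with scramble siRNA, 1 array per inhibitor and line. Over the 4 lines 6 of the 7 members passed against scramble+PBS, where 19.3% of all genes did. This comparison rests on the HaCaT-Mock scramble+PBS array that went against its label. With all arrays FOSL1 fell by 1.65 (adjusted p = 4.1e-12), and over the 3 other lines it fell by 1.98 (adjusted p = 3e-13). FOSL2 rose by 0.22 (adjusted p = 0.0077), or 0.36 over the 3 other lines, and JUND by 0.29 (adjusted p = 0.021), or 0.54. The JUND call with all 4 lines was lost without scramble+PBS replicate 1 of HaCaT-PIK3CA (0.25), without batch M (0.26), without a batch term (0.21), with only the groups compared (0.19) and with a replicate block (0.28). In batch E, which held 1 scramble+PBS array for each of these 3 lines, JUND was higher by 0.46 (HaCaT-EGFR), 0.37 (HaCaT-HRAS) and 0.38 (HaCaT-PIK3CA). FOS fell by 0.81 over the 4 lines and by 0.73 over the 3 lines. FOSB fell by 0.26, a call lost without the batch E scramble+PBS array of HaCaT-EGFR (-0.21) or of HaCaT-HRAS (-0.23).

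JUN was lower with scramble siRNA and an inhibitor than on most other arrays of 3 lines. It read 7.78, 7.57 and 8.02 in HaCaT-EGFR and 7.88, 7.70 and 7.97 in HaCaT-PIK3CA with afatinib, gefitinib and cetuximab, against scramble+PBS arrays at 8.53 and 8.61 and at 8.53 and 8.65. In HaCaT-Mock JUN read 7.95, 8.02 and 8.03 on these arrays and 9.13 on the scramble+PBS array. In HaCaT-HRAS it read 8.75, 8.80 and 8.82 against 8.93 and 8.93. Within a batch the JUN difference from scramble+PBS was -1.13 in HaCaT-Mock, whereas HaCaT-EGFR gave -0.82, HaCaT-PIK3CA -0.80 and HaCaT-HRAS -0.14. The batch E arrays of HaCaT-Mock, labelled without siRNA, had JUN values of 8.01 to 8.19 under inhibitors, near those of the scramble plus inhibitor arrays. Whether these 4 arrays had siRNA was not tested.

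The fitted JUN value turned on those HaCaT-Mock arrays, which carry much of the batch E term. With all arrays JUN fell by 0.46 over the 4 lines (adjusted p = 0.00023). It fell by 0.72 without the 4 batch E arrays of HaCaT-Mock (adjusted p = 7.6e-14), and over the 3 other lines alone it was -0.24 (adjusted p = 0.098). Leaving out those 4 arrays also moved FOSL2 to 0.18 (adjusted p = 0.064) and JUND to 0.19 (adjusted p = 0.22). JUNB gave 0.12 with all arrays (adjusted p = 0.12) and 0.19 over the 3 lines (adjusted p = 0.014).

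**Figure D4:**
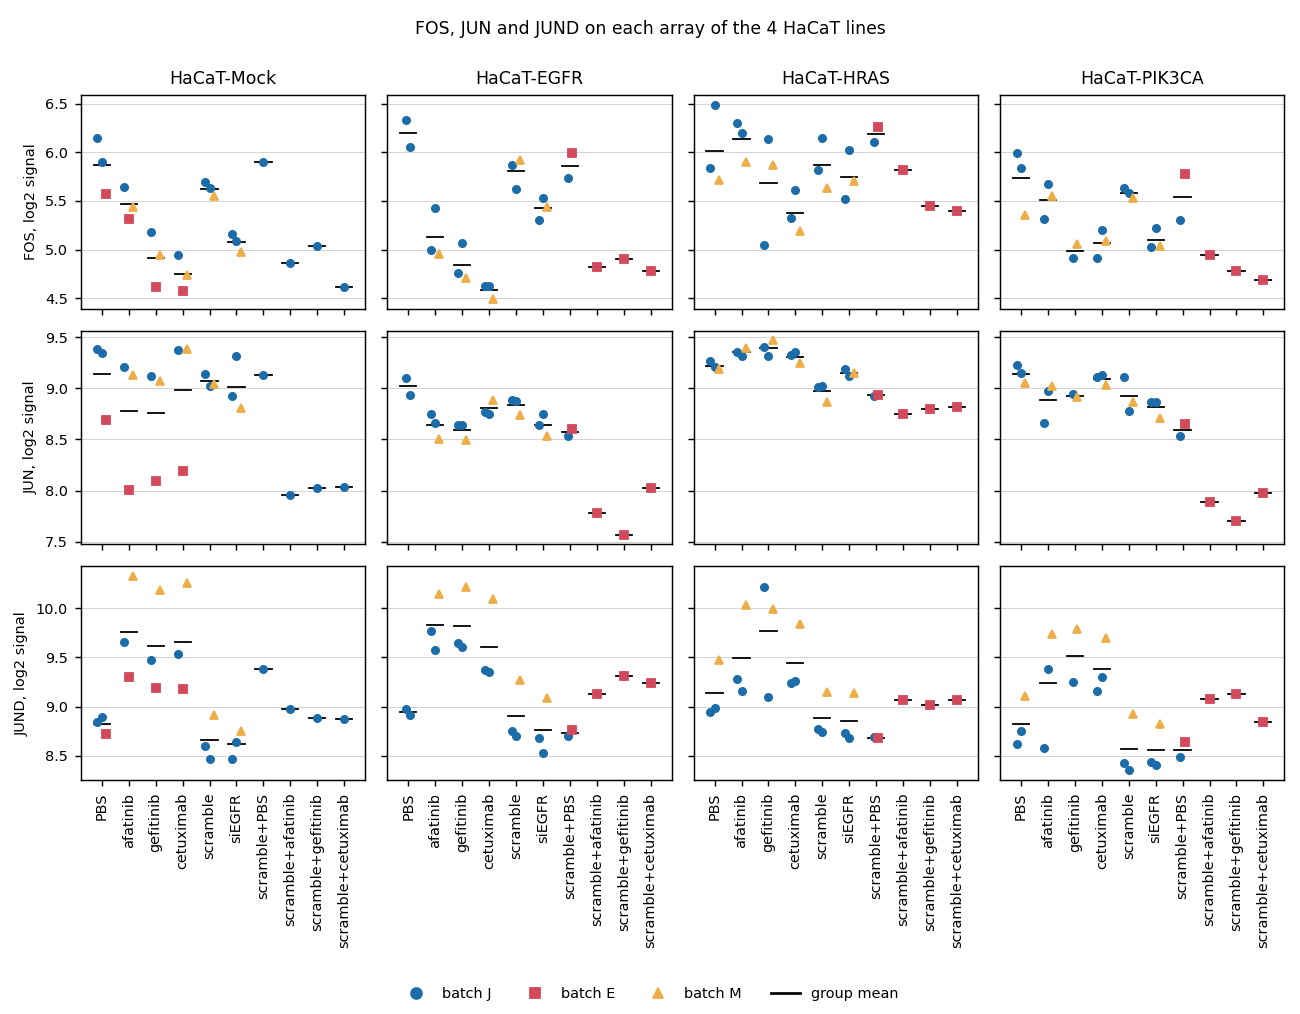
Log2 signal of FOS, JUN and JUND on each array (points, shaped by batch) of the 4 HaCaT lines by treatment, with group means as bars. JUN reads 7.57 to 8.03 with scramble siRNA and an inhibitor in 3 lines and 8.75 to 8.82 in HaCaT-HRAS, and the 4 batch E arrays of HaCaT-Mock lie below its other arrays without siRNA.

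Between arrays with scramble siRNA alone and PBS arrays, 4 of the 7 members differed over the 4 lines (27.1% of all genes). The labels name no PBS for the scramble arrays, so siRNA and vehicle cannot be told apart in this comparison. FOSL1 rose by 0.42 (adjusted p = 0.007), JUNB fell by 0.26 (adjusted p = 5e-06), JUND fell by 0.28 (adjusted p = 0.0026) and JUN fell by 0.23 (adjusted p = 0.02), the last lost without PBS 1 of HaCaT-EGFR (-0.21). FOS differed by -0.23 (adjusted p = 0.068), and passed without the 3 arrays in doubt (-0.22, adjusted p = 0.029) or without any of 6 single arrays (-0.25 to -0.267). Arrays with scramble siRNA alone and PBS arrays therefore start from different levels of these members. Between scramble+PBS and PBS no member passed by limma (5.92% of all genes), and FOSL1 differed by -0.42 with all arrays (adjusted p = 0.097) and by 0.17 over the 3 lines without HaCaT-Mock (adjusted p = 0.67). With all arrays JUNB differed by -0.018 and JUND by 0.055 between scramble+PBS and PBS. Both values include the HaCaT-Mock array that went against its label. It read 8.47 for JUNB and 9.38 for JUND, above the PBS means of HaCaT-Mock (8.25 and 8.82). The JUND means of the other lines, not adjusted for batch, were lower with scramble+PBS than under PBS. They were 8.73 against 8.94 in HaCaT-EGFR, 8.68 against 9.14 in HaCaT-HRAS and 8.56 against 8.83 in HaCaT-PIK3CA.

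Between the lines without inhibitor few members passed, and under PBS the counts were near the shares of all genes. Against HaCaT-Mock under PBS no member passed in HaCaT-EGFR (0.698% of all genes) or HaCaT-PIK3CA (0.162%), and JUNB alone passed in HaCaT-HRAS (16.1%). JUNB in HaCaT-HRAS read 8.52, 8.49 and 8.91 against 8.32, 8.36 and 8.07 in HaCaT-Mock, a rise of 0.27 (SE 0.087, adjusted p = 0.025) that was lost without PBS 1 or 3 of HaCaT-HRAS or PBS 3 of HaCaT-Mock (0.20 to 0.28). The JUNB call was also lost with a replicate block (0.20), in batch J alone (0.17), without batch M (0.23), without a batch term (0.39), with only the groups compared (0.17) and without the batch E arrays of HaCaT-Mock (0.20), with adjusted p from 0.12 to 0.55. FOSL1 differed by 0.12 between these lines (interval -0.37 to 0.61, adjusted p = 0.85). With scramble siRNA, JUNB (0.27, adjusted p = 0.02) and FOSL2 (0.35, adjusted p = 0.0085) were higher in HaCaT-HRAS than in HaCaT-Mock (14.9% of all genes). The JUNB call was lost without any of 4 single arrays (0.248 to 0.263), which were scramble 1 or 3 of either line, and the FOSL2 call without scramble 2 of HaCaT-HRAS or scramble 3 of HaCaT-Mock (0.29 and 0.31). No member passed with scramble siRNA in HaCaT-EGFR (2.38%) or HaCaT-PIK3CA (0.0303%).

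Subunits differed between the carcinoma lines and HaCaT-Mock and between SCC1 and SCC25, in comparisons where 34.6% to 42.5% of all genes passed. The counts of members in SCC1 and FaDu were near those shares. SCC1 and SCC25 had an array each in batches J and M, and FaDu and HaCaT-Parent had 1 array each in batch M, so the last 2 rest on the spread of other groups. The PBS arrays of HaCaT-Mock lie in batches J and E only, so FaDu and HaCaT-Parent share no batch with their control, and their values rest on the fitted term for batch M. FOSL1 read 8.58 and 9.36 in SCC1, 6.21 and 6.55 in SCC25, 7.95 in FaDu and 6.92 in HaCaT-Parent. FOS, in contrast, read 5.96 and 5.88 in SCC1, 7.06 and 7.15 in SCC25 and 8.16 in FaDu. Keratinocyte markers moved in these comparisons too. Of the 7 measured, 6 were lower in SCC1 than in HaCaT-Mock under PBS (median -1.55) and 5 were lower and 1 higher in FaDu (median -1.02). In SCC25 3 were higher and 1 lower (median 0.18), and in HaCaT-Parent 2 were higher and 2 lower (median 0.22). Their part in the results for the members was not tested.

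In SCC25 5 of the 7 members passed against HaCaT-Mock under PBS (42.2% of all genes). JUNB was higher by 1.33 (adjusted p = 5.5e-18), FOSL2 by 1.23 (adjusted p = 2.6e-14) and FOS by 1.24 (adjusted p = 6.8e-07). FOSL1 was lower by 2.30 (SE 0.27, adjusted p = 1.4e-10). JUN was lower by 0.44 (adjusted p = 0.029), lost without PBS 1 or 2 of HaCaT-Mock or the batch M array of SCC25 (-0.424, -0.442 and -0.356). In SCC1 3 passed (37.4%), and JUND (-0.90), JUN (-0.64) and FOSL2 (-0.50) were lower. Between SCC1 and SCC25 5 passed (42.5%), and FOSL1 was higher in SCC1 by 2.58 (SE 0.29, adjusted p = 2.7e-11) while FOSL2 was lower by 1.73 (SE 0.119, adjusted p = 6.5e-19). JUNB was lower in SCC1 by 1.32, FOS by 1.18 and JUND by 0.91.

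In FaDu 2 of the 7 passed (34.6%), with FOS higher by 2.36 (adjusted p = 2.8e-11) and FOSL1 lower by 0.93 (adjusted p = 0.03), the second lost without PBS 2 of HaCaT-Mock (-0.89), without the batch E arrays of HaCaT-Mock (-0.93, adjusted p = 0.05), without a batch term (-0.55, adjusted p = 0.37) and with quantile normalization (-0.78, adjusted p = 0.09). Without the 3 arrays in doubt FOSL2 (-0.27) and JUND (-0.46) passed as well. A FaDu array under PBS was alone in batch P, with an ACTB 3′ minus 5′ difference of 2.65, and was not tested. It read 7.36 for FOS, 8.68 for FOSL1 and 10.26 for JUND. HaCaT-Parent differed from HaCaT-Mock in 3 members (18.4%), with FOSL1 lower by 1.96 (adjusted p = 1.6e-05), JUN lower by 1.27 (adjusted p = 8.3e-06) and JUNB higher by 0.56 (adjusted p = 0.00049). The labels give no treatment for this array.

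**Figure D5:**
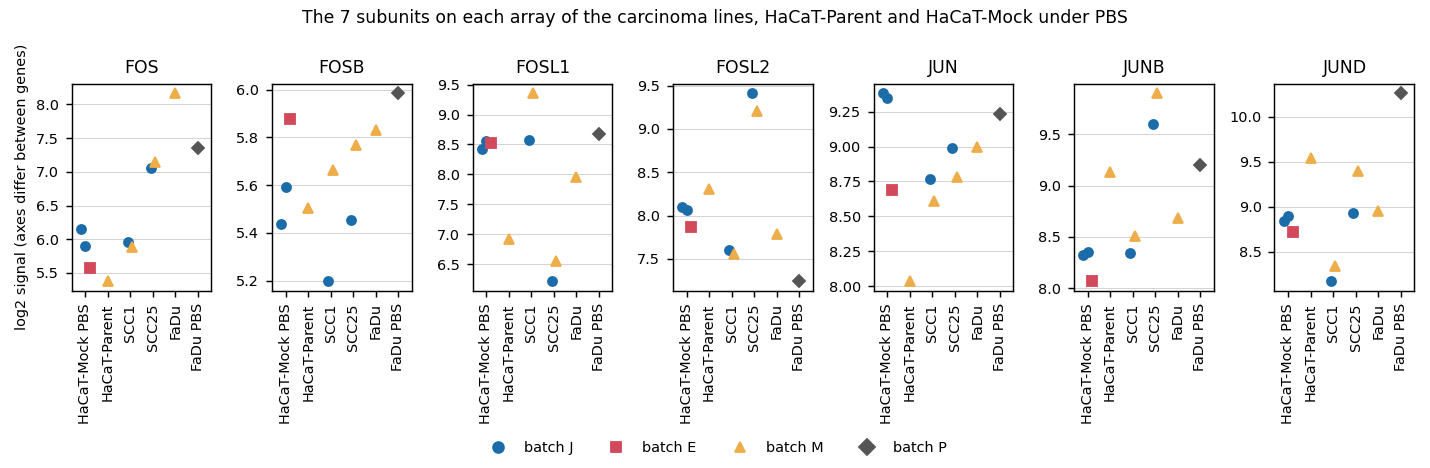
Log2 signal of each member (a panel each, with its own axis) on every array of HaCaT-Mock under PBS, HaCaT-Parent, SCC1, SCC25 and FaDu (with no treatment named, and under PBS in batch P), with points shaped by batch. SCC25 holds the highest FOSL2 (9.41 and 9.21) and JUNB (9.60 and 9.90) and FaDu the highest FOS (8.16), whereas FOSL1 is lowest in SCC25 (6.21 and 6.55) and HaCaT-Parent (6.92).

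The genes around AP-1 were described as lists, beside the median of all genes. In the comparison of inhibitors with PBS over the 4 lines, 39.2% of all genes passed (19.8% higher and 19.4% lower), and the counts of each list are to be read against that share. Among the other bZIP partners, 11 of 13 measured, 4 rose and 3 fell under the inhibitors over the 4 lines (median 0.05, against -0.01 for all genes). JDP2, a repressor that pairs with JUN proteins, rose by 0.79, and MAFF and MAFG, small MAF proteins, fell by 0.72 and 0.25. Of 6 serum response and ternary complex factors, 2 rose and 3 fell (median -0.08), among them MRTFA (0.29), MRTFB (0.24) and ELK3 (-0.27). Of 8 measured MAP kinases and MAPK-activated kinases of 10 listed, 1 rose and 3 fell (median -0.06), near the share of all genes, with MAPK10 (JNK3) at 0.44, MAPK8 (JNK1) at -0.22 and MAPK9 (JNK2) at -0.13. Of 15 measured other immediate early genes of 17 listed, 10 fell and 1 rose (median -0.22). EGR1, a zinc finger factor of the immediate early response, fell by 2.45, EGR3 by 1.41 and IER3 by 1.31. Of 22 measured genes known as AP-1 targets of 24 listed, 7 rose and 10 fell (median -0.11). HBEGF, an EGFR ligand, fell by 1.34 and IL1B, a cytokine, by 1.16, whereas IVL, a protein of the cornified envelope, rose by 1.63.

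With siEGFR over the 4 lines 8 of the 15 other immediate early genes fell and 4 rose, and 11 of the 22 target genes fell and 6 rose, against an all-gene median of -0.02 and 28.4% of all genes that passed. HBEGF fell by 0.99, IER3 by 0.90 and EGR1 by 0.72, and JDP2 rose by 0.97. In HaCaT-HRAS under PBS, where JUNB alone of the subunits and 16.1% of all genes passed against HaCaT-Mock, 9 of the 15 other immediate early genes were higher and 1 lower (median 0.41), and 9 of the 22 target genes were higher and none lower by limma (median 0.31). HBEGF was higher there by 1.96, IL1B by 1.68 and EGR3 by 1.58.

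The pattern of each member over the 40 groups of line and treatment was set against all genes, as a description. The groups share batches, and their coefficients were adjusted for batch. FOS was most like EGR1 (r = 0.92), DUSP6 (0.87) and IER3 (0.853). FOSL1 was most like SERINC2 (0.987), ETV5 (0.976), an ETS factor, and ACER3 (0.971). FOSL2 was most like TRIP4 (0.93), OFD1 (0.928) and GRAMD1C (0.915), and FOSB like PLIN2 (0.786), NOP10 (0.771) and PBDC1 (0.765). JUN was most like CCDC9B (0.924), EPHA2 (0.891), a receptor tyrosine kinase, and C17orf99 (0.886). JUNB was most like SDC4 (0.861), MXD1 (0.849) and POLD4 (0.844), and JUND like RHBDF1 (0.952), TSC22D3 (0.938), a glucocorticoid-induced gene, and TMC4 (0.929). Among the members FOSL1 ran with FOS (r = 0.81) and against FOSL2 (r = -0.74). JUND ran with FOSL2 (0.78) and JUNB (0.75) and showed no relation to JUN (-0.01).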

How the data were processed

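The 96 arrays are Affymetrix human U133 Plus 2.0 arrays of total RNA. The authors deposited log2 expression values per probe set (lowest 2.65, highest 14.5). The submitters' processing notes name affy, and the study's methods describe frozen robust multi-array normalization, a batch correction by surrogate variables and the dropping of outlying arrays. Which of them were applied before deposit is not given in the sources. Remaining batch effects could shift levels, so batch was kept in each fit. Counts of arrays above or below a PBS mean, and of groups without overlap, were made on signals not adjusted for batch.

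Gene names came from GEO's platform annotation, which can be out of date. In the table of 54675 probe sets, 41091 had 1 symbol (control probe sets set aside), 1801 had several and 11777 were not listed. Each of the 19775 genes was read from its brightest probe set by mean over the 89 arrays of HaCaT constructs. Group, batch and, where given, replicate number came from the labels. Numbers of batch M and carcinoma arrays were assigned in listing order. The labels do not say whether replicates were separate cultures, so p-values measure the spread between arrays, which may be technical. The number of arrays limits precision.

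Linear models were fitted with limma 3.58.1 in R 4.3.3 (files read with the data.table package, version 1.17.8), with a term for each group and for batches J, E and M. The HaCaT model held 40 groups and 47 residual degrees of freedom. The model with the carcinoma lines held 95 arrays and 44 groups, with 49 residual degrees of freedom. P-values were adjusted by Benjamini-Hochberg over all genes in each of 36 comparisons. The HaCaT model was tested on simulated data in the design of the comparison of inhibitors with PBS over the 4 lines. There 100 of 100 genes changed by 1 and 100 of 100 changed by 2 on the log2 scale were recovered, with 11 false calls among 19775 genes. Smaller changes and the model with the carcinoma lines were not simulated. Alternatives were array weights, batch J or M alone, no batch term, only the groups compared, a replicate block, quantile normalization, a minimum mean of 5, the study's probe set rule, each other probe set and leaving out each array of a group with more than 1. The members, gene lists and tests were chosen with earlier results of these data known. All members were named, with 3 genes per list (lowest adjusted p) and the 3 genes most like each member. Names missing from the annotation are not reported here. Samples that share a replicate number in batch J were checked for shared deviations. Over 190 pairs of groups r ranged from -0.21 to 0.22 with a median of 0 and 9 over 0.1, so no pairing across all groups was seen. Pairs within a line were not separated from pairs between lines, so pairing within a line was not tested. Promoter windows came from RefSeq (GRCh38.p14).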

Additional observations from a re-analysis of the deposited data

Results flagged for a closer look

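The response to EGFR inhibitors differed between HaCaT-HRAS and HaCaT-Mock for 2 members in the test of the difference itself. FOSL1 differed by 2.07 (limma adjusted p = 2.6e-07), with a response of -2.54 in HaCaT-Mock and -0.47 in HaCaT-HRAS. FOSL2 differed by -0.43 (adjusted p = 0.0079), with responses of 0.62 and 0.19. No HaCaT group held more than 3 arrays, so single arrays were not tested for standing apart from their group.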

How the results depend on the processing

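Settings that left out the 3 arrays in doubt, the batch M arrays, the batch E arrays of HaCaT-Mock, or HaCaT-Mock in the scramble comparisons were chosen after seeing the data. Under settings that kept each gene's probe set, batches J and M alone included, no member's called direction reversed. Leaving out 1 array in each of 83 refits gave 3300 results on the same side of the threshold, 79 that lost a call, 16 that gained one and none that reversed. The scramble plus inhibitor groups, scramble+PBS of HaCaT-Mock, FaDu and HaCaT-Parent hold 1 array each and were not left out. Batch M alone left no residual degrees of freedom and gave values only.

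Directions reversed only between probe sets. Probe sets are named here by their mean over the HaCaT arrays. For JUND, the probe set of mean 4.94 gave -0.118 for the inhibitors over the 4 lines, -0.096 for afatinib, -0.195 for gefitinib, -0.063 for cetuximab, -0.19 with scramble siRNA, -0.172 (HaCaT-Mock), -0.249 (HaCaT-EGFR) and -0.061 (HaCaT-PIK3CA) by line, 0.031 for SCC1 against HaCaT-Mock, 0.127 for SCC1 against SCC25 and 0.112 for scramble siRNA against PBS. The JUND probe set of mean 5.24 gave -0.053 for the inhibitors in HaCaT-EGFR and 0.158 for scramble siRNA against PBS, where that of mean 5.37 gave 0.172. For FOSL2, the probe set of mean 5.49 gave 0.108 for the response of HaCaT-HRAS against HaCaT-Mock and -0.094 for the inhibitors with scramble siRNA, that of mean 5.29 gave -0.042 for the inhibitors in HaCaT-PIK3CA and 0.072 for SCC1, and that of mean 5.80 gave 0.143 for SCC1. The cause was not tested.

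Counts of members that passed moved by over 1.5 times as follows, and the cause was not tested. With array weights the counts were 4 for cetuximab against afatinib (2 in the reported fit), 0 for cetuximab against gefitinib (1), 0 for gefitinib against afatinib (1), 4 for FaDu (2), 2 for HaCaT-EGFR under PBS (0), 3 for HaCaT-EGFR with scramble siRNA (0), 2 for HaCaT-HRAS under PBS (1), 3 for the inhibitors in HaCaT-HRAS (1), 7 for scramble siRNA against PBS (4), 1 for scramble+PBS (0), 2 for siEGFR in HaCaT-HRAS (0) and 1 for the siEGFR response of HaCaT-HRAS (0). Without the 3 arrays in doubt they were 4 for FaDu, 1 for HaCaT-EGFR under PBS and with scramble siRNA, 3 for the inhibitors in HaCaT-HRAS, 1 for scramble+PBS, 2 for siEGFR in HaCaT-HRAS and 1 for its siEGFR response. With batch J alone, cetuximab against gefitinib, gefitinib against afatinib, HaCaT-HRAS under PBS and with scramble siRNA, the inhibitors in HaCaT-HRAS and siEGFR in HaCaT-PIK3CA gave 0. In batch J alone cetuximab against afatinib, the inhibitor response of HaCaT-HRAS, scramble+PBS and siEGFR in HaCaT-Mock gave 1, scramble siRNA against PBS 2, and the inhibitors in HaCaT-PIK3CA and siEGFR over the 4 lines 3. Without batch M, the counts were 0 for cetuximab against gefitinib, gefitinib against afatinib, HaCaT-HRAS under PBS and with scramble siRNA and the inhibitors in HaCaT-HRAS, 1 for cetuximab against afatinib, scramble siRNA against PBS and siEGFR in HaCaT-Mock and HaCaT-PIK3CA, and 3 for siEGFR over the 4 lines. Without a batch term they were 0 for cetuximab against gefitinib, HaCaT-HRAS under PBS and the inhibitors in HaCaT-HRAS, 1 for cetuximab against afatinib, FaDu, SCC1, HaCaT-HRAS with scramble siRNA, scramble siRNA against PBS and siEGFR in HaCaT-Mock and HaCaT-PIK3CA, and 3 for the inhibitors with scramble siRNA, the inhibitors in HaCaT-PIK3CA and siEGFR over the 4 lines. With only the groups compared they were 0 for cetuximab against gefitinib, gefitinib against afatinib, HaCaT-HRAS under PBS and the inhibitors in HaCaT-HRAS, 1 for cetuximab against afatinib, scramble+PBS, siEGFR in HaCaT-HRAS and its siEGFR response, and 3 for the inhibitors with scramble siRNA and in HaCaT-PIK3CA. The study's probe set rule gave 2 for cetuximab against gefitinib and HaCaT-HRAS under PBS and 1 for HaCaT-EGFR with scramble siRNA and siEGFR in HaCaT-HRAS. Quantile normalization gave 1 for FaDu and HaCaT-HRAS with scramble siRNA, and a mean of at least 5 gave 1 for HaCaT-EGFR with scramble siRNA. Without the batch E arrays of HaCaT-Mock the counts were 2 for cetuximab against gefitinib, 0 for HaCaT-HRAS under PBS and 1 for scramble+PBS. With a replicate block, the count for HaCaT-HRAS under PBS was 0, and no other count moved this far.

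With 1 array left out, counts ran from 0 to 2 for cetuximab against gefitinib, HaCaT-HRAS with scramble siRNA and the inhibitors in HaCaT-HRAS, from 0 to 1 for gefitinib against afatinib and HaCaT-HRAS under PBS, from 1 to 2 for FaDu and siEGFR in HaCaT-PIK3CA, and from 1 to 3 for siEGFR in HaCaT-Mock. FOS and FOSB lie below the median gene signal, which limits how far their falls can be read. FOSL1 reaches that range under inhibitors, which limits its fall in the same way.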
